A study of Mus musculus with 16 samples.

Results

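Meis1, Hoxa9, Hlf, Mecom, Mllt3, Gata2, Erg, Lyl1 and Lmo2 are 9 genes for transcription factors and cofactors of hematopoietic stem cells. They were chosen by name, as known regulators of these cells, with earlier results of these data known, and each was found under its symbol among the 26595 features of the CD93 experiment and the 36930 features of the drug experiment. All 9 are protein-coding in the GENCODE annotation of mouse build GRCm38, and they are spread over the genome, with only Meis1 and Hlf (chromosome 11) and Hoxa9 and Gata2 (chromosome 6) sharing a chromosome.

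Hematopoietic stem cells keep their ability to self-renew through a set of transcription factors that bind together at shared enhancers and regulate one another. Gata2, Erg, Lyl1 and Lmo2 belong to a group known as the heptad, which also holds Tal1, Runx1 and Fli1; Lmo2 binds no DNA itself and bridges GATA and basic helix-loop-helix factors. Hoxa9 and its cofactor Meis1 act on common target genes and are drivers of myeloid leukemia when overexpressed, while Hlf, Mecom and Mllt3 are most active in stem cells, are turned off during differentiation, and have been used to mark or expand stem cells.

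The study asked how the surface receptor CD93 and the antiemetic dopamine antagonist metoclopramide (MCP) bear on stem cells of chronic myeloid leukemia (CML). RNA of sorted mouse bone marrow cells was amplified with the SMART-Seq v4 kit and sequenced. CML was made by transducing LSK cells (lineage-negative, Sca-1+, Kit+ stem and progenitor cells) with BCR-ABL1-GFP and injecting them intravenously into non-irradiated syngeneic BL/6 mice, so the recipients kept their own hematopoiesis and carried Cd93 in every leukemic group. Leukemia stem cells (LSCs) were then sorted from bone marrow. The 16 libraries formed 6 groups by their titles. In the CD93 experiment, KO LSC (3 libraries) came from CML started with CD93-/- cells and WT LSC (3 libraries) from CML started with BL/6 cells. KO LSK (2 libraries) and WT LSK (2 libraries) were untransduced LSK cells of naive CD93-/- and BL/6 mice. In the drug experiment, MCP LSC (3 libraries) came from BL/6 CML mice given MCP at 10 mg/kg, and Veh LSC (3 libraries) from BL/6 CML mice given vehicle. The labels give post natal week 8 as the age and, for the BL/6 samples, C57BL/6 as the strain. For the MCP and vehicle libraries the source label names LSK cells but the titles name LSCs, and grouping went by title. Whether the libraries of a group came from separate animals is not stated, so p-values measure only the spread between these libraries, which may be technical.

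The deposited values were taken to be RPKM, reads scaled by gene length and by the library's mapped reads, a scale on which levels of different genes can be compared per length; genes with no signal are listed at 0.003 RPKM in the CD93 experiment and at 0.001 RPKM in the drug experiment. Read depth was not recoverable from them. Libraries differed widely in how many features were above that lowest value: 1230 to 2967 in KO LSC, 5525 to 7956 in WT LSC, 14279 to 14906 in KO LSK, 14839 to 14865 in WT LSK, 15587 to 16447 in MCP LSC and 19554 to 20014 in Veh LSC. Of 10 genes that every cell uses, among them Actb, Tbp and Hprt, 4 to 5 were at the lowest value in each KO LSC library and 2 in each WT LSC library, against 0 in the other 10 libraries. A gene listed at 0.003 RPKM in an LSC library is therefore reported as listed at that value, not as silent. The LSC libraries of the CD93 experiment were also poor in the markers of the sort: Kit was at 0.003 RPKM in all 3 KO LSC libraries and at 0.221, 16.8 and 2.63 RPKM in WT LSC, and the 8 sort and stem cell surface genes summed to 1.33, 304 and 1.85 RPKM in KO LSC, where 7 of the 8 were at the lowest value in each library and Flt3 alone made up the 304 RPKM of the second, and to 10.5 to 78.7 RPKM in WT LSC, against 1294 to 1556 RPKM in KO LSK and 1642 to 2415 RPKM in WT LSK. The 8 neutrophil genes summed to 45076 to 81168 RPKM in KO LSC and 82417 to 137268 RPKM in WT LSC, against 4471 to 5944 RPKM in KO LSK and 4821 to 7904 RPKM in WT LSK. Of these 8 genes, 1 to 2 were at the lowest value in the KO LSC libraries and 0 to 1 in the WT LSC libraries. The drug experiment's LSCs had Kit at 62.4 to 74.3 RPKM with MCP and 68.4 to 77.5 RPKM with vehicle.

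Cd93, the targeted gene, was at 0.003, 44.3 and 0.003 RPKM in the 3 libraries labelled KO LSC and at 0.003, 0.003 and 5.74 RPKM in WT LSC. It was at 1.01 and 2.10 RPKM in KO LSK and at 5.34 and 22.9 RPKM in WT LSK. The second library labelled KO LSC thus held the highest Cd93 value of the CD93 experiment, which goes against its label; which part of the gene is deleted is not given, so reads outside it could not be set aside. Calls and counts for the 9 genes that use this library are given with and without it.

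**Figure D1:**
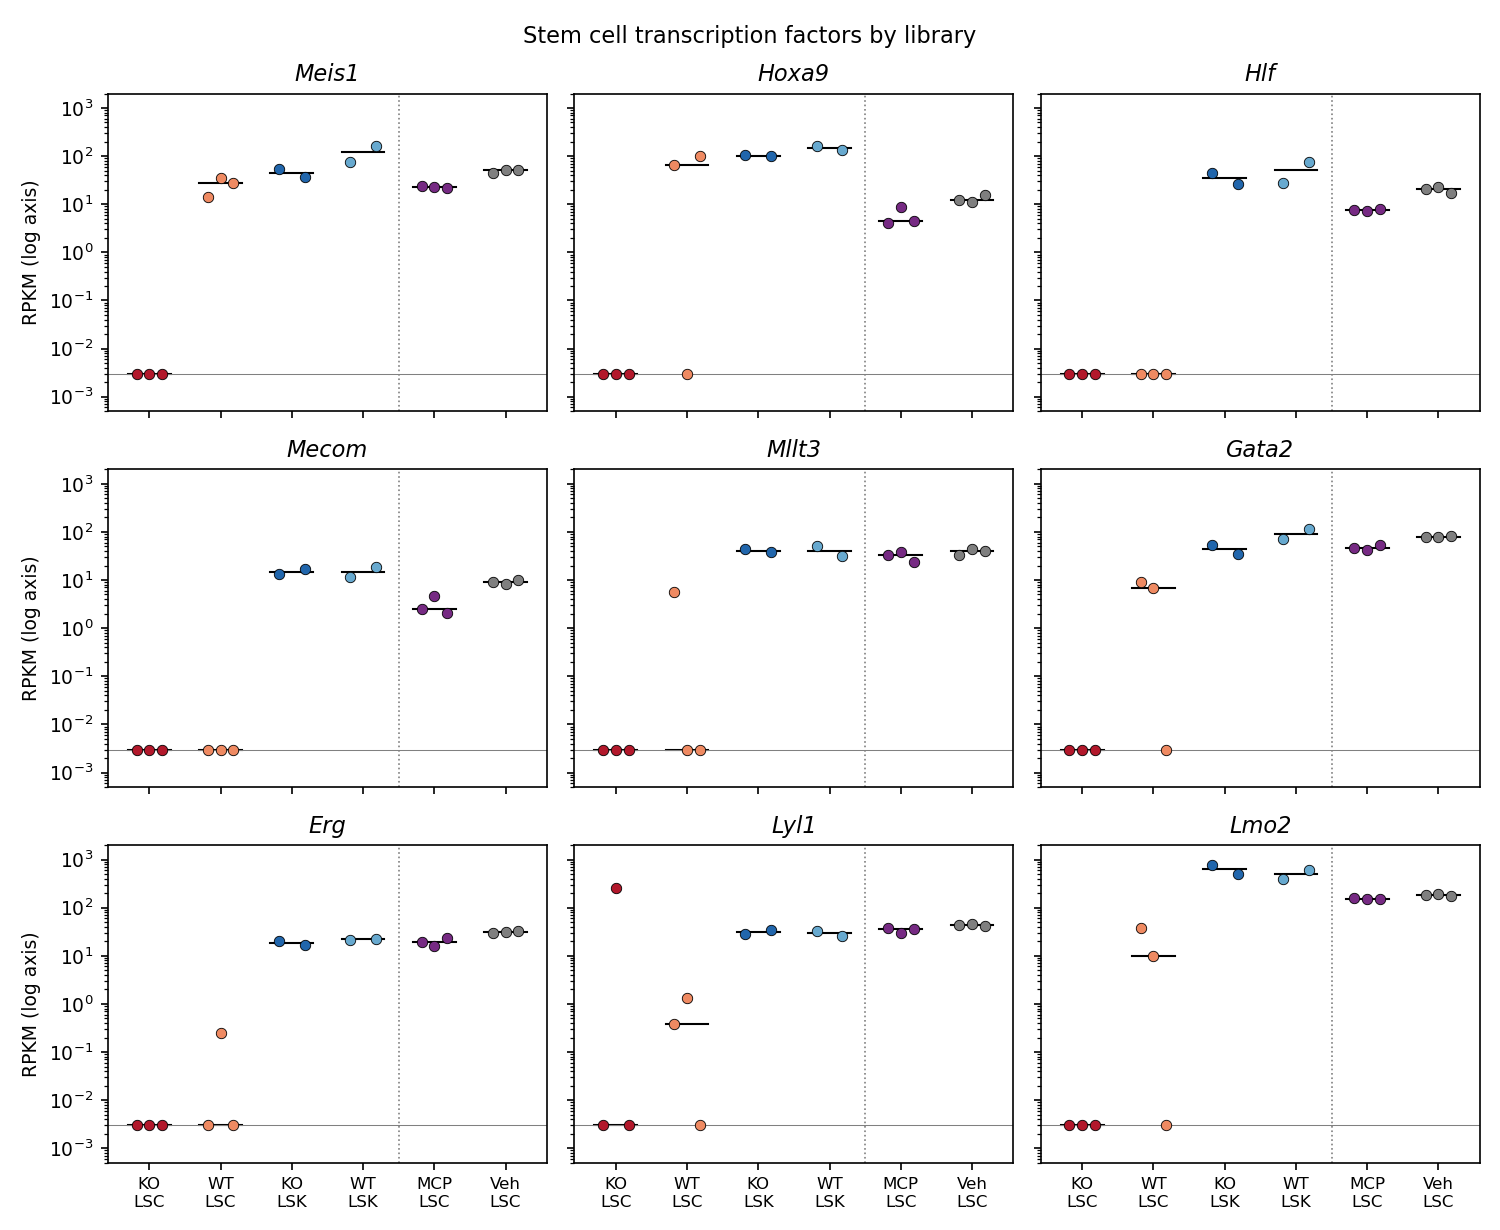
RPKM of each of the 9 genes in every library (log axis), 1 panel per gene and 1 point per library, by group; short bars are group medians, and the grey line is 0.003 RPKM. All 9 genes were above the lowest value in every LSK, MCP LSC and Veh LSC library, while most points of KO LSC and WT LSC lie at 0.003 RPKM.

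In naive LSK cells of either genotype all 9 genes were well above the lowest value. Lmo2, the bridging cofactor, was the most abundant, at 776 and 502 RPKM in KO LSK and 397 and 599 RPKM in WT LSK, and in both genotypes its range lay above that of Hoxa9, which ranked second by mean. Erg, an ETS factor, and Mecom, a zinc finger factor, were the lowest. Between them by mean stood Meis1, Gata2, Hlf, Mllt3 and Lyl1. Their ranges overlapped from neighbour to neighbour in both genotypes, so the order of neighbours is not fixed by these libraries. In WT LSK the ranges of Hoxa9 and Meis1 overlapped too, and in the second library Meis1 (163 RPKM) was above Hoxa9 (132 RPKM). Genes farther apart could be ordered in part: Meis1 and Gata2 ranged above Lyl1 in both genotypes. In Veh LSC the order was Lmo2, Gata2, Meis1, Lyl1, Mllt3, Erg, Hlf, Hoxa9 and Mecom, and the only neighbours whose ranges overlapped were Meis1 with Lyl1 and Lyl1 with Mllt3. Hoxa9 stood second by mean among the 9 genes in the LSK groups and second from the last in Veh LSC, but the 2 experiments were normalized separately and this is a description only.

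With metoclopramide, Meis1, Hlf and Gata2 fell in LSCs. Their mean level in MCP LSC was 0.466 times (Meis1), 0.380 times (Hlf) and 0.604 times (Gata2) that in Veh LSC, and for 8 of the 9 genes every MCP library lay below every vehicle library. The test was limma's moderated test on log2(RPKM + 1), two-sided, with Benjamini-Hochberg adjustment over the 14005 features tested (at least 1 RPKM in at least 2 libraries) and a threshold of 0.05. It called 3 of 9 genes lower and 0 higher, beside 1.80% of all tested features called lower and 0.521% called higher; ranges did not overlap, with MCP lower, in 25.6% of tested features. The median log2 difference was -0.72 over the 9 genes and -0.18 over all tested features. In RNA from sorted populations, fewer cells of a type and less RNA per cell cannot be told apart.

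The promoter windows of the 3 genes that fell are shown because heptad and HOX factors are known to bind near one another's genes; each runs from 250 bases before to 50 after a start site, on the gene's strand (RefSeq, GRCm38.p6). Capitals mark matches, on either strand, to short letters of the family's motifs: for factors of the GATA family AGATAA and also the related word TGATAA, for the E-box of basic helix-loop-helix proteins CAGCTG and also the related word CAGGTG, for ETS proteins GGAAGT and also the related word GGAAAC, and for MEIS proteins TGACAG. The windows lie at chr11:19018920-19019219, minus strand (Meis1), chr11:90390868-90391167, minus strand (Hlf), chr6:88193641-88193940, plus strand (Gata2, first window) and chr6:88198414-88198713, plus strand (Gata2, second window).
Meis1: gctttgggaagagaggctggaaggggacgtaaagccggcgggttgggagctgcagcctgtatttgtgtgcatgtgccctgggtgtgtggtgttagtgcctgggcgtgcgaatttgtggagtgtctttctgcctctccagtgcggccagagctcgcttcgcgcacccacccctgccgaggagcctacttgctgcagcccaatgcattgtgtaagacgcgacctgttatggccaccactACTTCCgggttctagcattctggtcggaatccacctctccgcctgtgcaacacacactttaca
Hlf: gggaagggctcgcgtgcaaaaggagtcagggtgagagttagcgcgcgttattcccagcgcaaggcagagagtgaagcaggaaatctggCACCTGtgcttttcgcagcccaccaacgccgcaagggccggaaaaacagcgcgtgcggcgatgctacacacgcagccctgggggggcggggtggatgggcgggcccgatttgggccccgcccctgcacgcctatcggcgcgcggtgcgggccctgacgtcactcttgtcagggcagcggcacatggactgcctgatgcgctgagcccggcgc
Gata2, first window: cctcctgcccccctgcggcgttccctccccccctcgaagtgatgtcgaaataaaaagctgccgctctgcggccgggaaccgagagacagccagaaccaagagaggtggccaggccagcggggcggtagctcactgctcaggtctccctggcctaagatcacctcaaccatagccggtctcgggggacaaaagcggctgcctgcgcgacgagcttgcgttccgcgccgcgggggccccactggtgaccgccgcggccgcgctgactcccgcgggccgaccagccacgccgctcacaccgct
Gata2, second window: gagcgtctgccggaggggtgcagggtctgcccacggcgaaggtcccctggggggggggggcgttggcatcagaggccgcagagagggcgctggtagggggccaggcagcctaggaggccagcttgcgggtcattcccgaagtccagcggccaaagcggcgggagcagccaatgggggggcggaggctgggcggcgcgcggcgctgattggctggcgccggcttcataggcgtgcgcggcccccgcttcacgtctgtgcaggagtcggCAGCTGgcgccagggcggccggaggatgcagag
The Meis1 window held 1 ETS match at position -13 from the start site, the Hlf window 1 E-box at -162 and the second Gata2 window 1 E-box at 18; the first Gata2 window held none of the letters. Over the 13 windows of the 8 genes with an entry in the RefSeq table, 2 held a GATA match, 5 an E-box, 2 an ETS match and 3 a MEIS match. Of all 32851 windows in that table, 18.6% held a GATA match, 32.9% an E-box, 38.0% an ETS match and 19.2% a MEIS match. The matches are letters only, and no binding was measured.

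Meis1 and Hoxa9 form the HOX pair. Meis1 was at 24.4, 22.6 and 21.3 RPKM in MCP LSC, against 44.1, 50.8 and 51.6 RPKM in Veh LSC. The drug libraries lay close together and far below the vehicle libraries, with means of 22.8 ± 1.56 RPKM in MCP LSC and 48.8 ± 4.09 RPKM in Veh LSC (SD, n = 3 each). The log2 difference was -1.07 (SE 0.11, limma adjusted p = 0.00903), with a 95% interval of -1.32 to -0.81. Hoxa9 was at 4.03, 8.67 and 4.50 RPKM in MCP LSC, against 12.5, 10.9 and 15.7 RPKM in Veh LSC. Its ranges did not overlap either, but the second MCP library stood closer to the vehicle libraries and the difference of -1.11 (SE 0.29) did not pass (limma adjusted p = 0.0864). Without that library it did (-1.40, limma adjusted p = 0.0407).

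Hlf, Mecom and Mllt3, the factors tied most closely to the stem cell state, split. Hlf, a PAR bZIP factor, was at 7.49, 7.36 and 7.87 RPKM in MCP LSC, against 20.3, 22.3 and 17.2 RPKM in Veh LSC. The drug libraries were nearly equal (7.58 ± 0.27 RPKM, SD, n = 3) and the vehicle libraries averaged 19.9 ± 2.58 RPKM (SD, n = 3), a log2 difference of -1.28 (SE 0.15, limma adjusted p = 0.0156). Mecom, whose zinc finger product EVI1 is required by stem cells, was at 2.44, 4.58 and 2.04 RPKM in MCP LSC, against 8.99, 8.30 and 10.1 RPKM in Veh LSC. It had the most negative difference of the 9 genes, -1.38 (SE 0.27, 95% interval -2.02 to -0.74), and missed the threshold (limma adjusted p = 0.0518); without the second MCP library, again the highest of the drug group, it passed (limma adjusted p = 0.0294). Among features above the lowest value Mecom stood at the 28.0 to 38.8 percentile in MCP LSC and at the 57.0 to 60.1 percentile in Veh LSC. Mllt3, a YEATS-domain reader of acylated histones, was at 33.3, 39.1 and 23.9 RPKM in MCP LSC, against 33.5, 43.7 and 39.4 RPKM in Veh LSC. Mllt3 was the only member with overlapping groups; its difference of -0.29 (SE 0.19, limma adjusted p = 0.400) had a 95% interval of -0.73 to 0.16.

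Of the 4 heptad factors only Gata2 passed. Gata2, the zinc finger factor of early progenitors, was at 46.6, 42.9 and 54.4 RPKM in MCP LSC, against 76.6, 80.1 and 81.5 RPKM in Veh LSC. The vehicle libraries were tight (79.4 ± 2.52 RPKM, SD, n = 3), the drug libraries wider (48.0 ± 5.85 RPKM, SD, n = 3), and the log2 difference was -0.72 (SE 0.10, limma adjusted p = 0.0247). Erg was at 19.7, 16.0 and 23.4 RPKM in MCP LSC, against 29.7, 31.8 and 33.3 RPKM in Veh LSC, a difference of -0.67 (SE 0.15, limma adjusted p = 0.0681). All 3 drug libraries were below the vehicle libraries, and without the third MCP library, the highest of them, Erg passed (-0.79, limma adjusted p = 0.0478). Lyl1, a basic helix-loop-helix factor related to Tal1, was at 37.0, 29.1 and 35.3 RPKM in MCP LSC, against 43.0, 46.3 and 40.6 RPKM in Veh LSC (difference -0.35, SE 0.12, limma adjusted p = 0.144). Lmo2 was at 159.9, 152 and 148 RPKM in MCP LSC, against 181, 196 and 175 RPKM in Veh LSC (difference -0.26, SE 0.07, limma adjusted p = 0.101). Both had drug and vehicle ranges that stood apart by little, and neither passed.

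**Figure D2:**
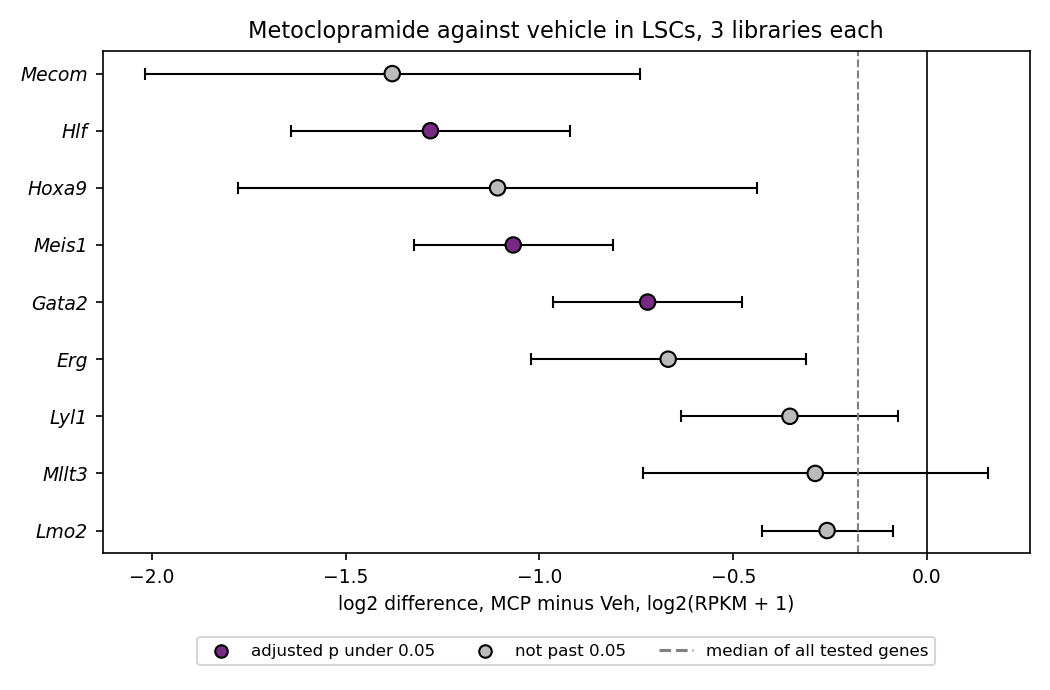
Log2 difference of log2(RPKM + 1), MCP LSC minus Veh LSC, for the 9 genes, with 95% intervals from limma (3 libraries each); purple marks adjusted p under 0.05, and the dashed line is the median of all tested genes at -0.18. Hlf, Meis1 and Gata2 passed, and Mecom, with the most negative estimate, had a wide interval.

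Hlf and Gata2 lost their calls whichever vehicle library was left out, and Meis1 lost its call without the third. Over the fits that left out each of the 6 libraries in turn, the log2 differences changed little. They were -1.14 to -1.02 for Meis1, -1.38 to -1.20 for Hlf and -0.81 to -0.65 for Gata2. Without the first Veh library, limma adjusted p-values were 0.106 for Hlf and 0.108 for Gata2, without the second 0.0676 and 0.0903, and without the third 0.0676 and 0.132, with Meis1 at 0.0694; the number of all genes called was then 46, 77 and 25, against 325 with all libraries. With no filter on low values Gata2 also missed (limma adjusted p = 0.0739). Quantile normalization moved the median of all tested genes to -0.03 and left Meis1 at -0.95, Hlf at -1.09 and Gata2 at -0.63, each still past the threshold; it called 97 higher among 247 genes, against 73 higher among 325 on the deposited scale. With library weights Mecom passed (limma adjusted p = 0.0455).

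Other cell type markers moved with the treatment. The 6 mast cell and basophil genes summed to 36.8 to 46.8 RPKM in MCP LSC and 187 to 208 RPKM in Veh LSC, and 4 of the 6 were lower by the same test, Cpa3 most (14.5 ± 2.56 RPKM in MCP LSC and 114 ± 6.42 RPKM in Veh LSC, SD, n = 3 each). Gata2 is also expressed in mast cells and basophils. The 8 neutrophil genes summed to 4388 to 4521 RPKM in MCP LSC and 2903 to 3130 RPKM in Veh LSC, with 4 of 8 higher (S100a8, Elane, Mpo and Ctsg). The list did not move together: Ltf (-1.04) and Ngp (-0.37) had negative log2 differences that did not pass, and Camp was at 0.02. The 6 megakaryocyte genes summed to 41.0 to 46.8 RPKM in MCP LSC and 77.4 to 94.8 RPKM in Veh LSC, with 2 of 6 lower, and the 8 sort and stem cell surface genes to 186 to 196 RPKM in MCP LSC and 266 to 277 RPKM in Veh LSC, with Cd34 and Slamf1 lower. The 7 macrophage and monocyte genes summed to 14.0 to 20.8 RPKM in MCP LSC and 28.5 to 34.2 RPKM in Veh LSC, with 2 of 7 lower and 2 to 4 of them at the lowest value in MCP LSC. The 8 erythroid genes summed to 243 to 264 RPKM in MCP LSC and 313 to 346 RPKM in Veh LSC, with 2 of 8 lower. Sums were 0.715 to 2.25 RPKM in MCP LSC and 2.43 to 6.22 RPKM in Veh LSC for the 6 B cell genes, 95.2 to 152 RPKM in MCP LSC and 97.0 to 104 RPKM in Veh LSC for the 6 T and NK cell genes, and 27.8 to 31.6 RPKM in MCP LSC and 40.6 to 46.8 RPKM in Veh LSC for the 4 endothelial genes; 0 were called of the 1 B cell, 3 T and NK cell and 2 endothelial genes that could be tested. MCP libraries also had fewer features above the lowest value, as given above. The part of these differences in the lower Meis1, Hlf and Gata2 was not tested.

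In a wider list of 37 stem and progenitor regulators, 2 fell with MCP and 0 rose, and the median log2 difference was -0.26, beside 1.80% of all tested features lower, 0.521% higher and a median of -0.18. Mycn, a MYC family factor, was at 6.89, 9.66 and 9.19 RPKM in MCP LSC, against 24.6, 30.4 and 30.4 RPKM in Veh LSC (difference -1.63, SE 0.17, limma adjusted p = 0.00979). Sox4, a SOX family factor of progenitors, was at 16.3, 20.3 and 22.1 RPKM in MCP LSC, against 37.2, 36.1 and 35.5 RPKM in Veh LSC (difference -0.87, SE 0.13, limma adjusted p = 0.0279). In both genes every drug library was below every vehicle library. By role, 0 of the 10 TAL1 complex and ETS partners passed (median -0.25), 0 of the 9 HOX, PBX and MLL partners (median -0.02) and 2 of the 18 further regulators (median -0.34). Differences were negative in 31 of the 37, and ranges stood apart, with MCP lower, in 21 of the 37, beside 25.6% of all tested features. The heptad's remaining members were among those that did not pass: Tal1 at -0.28 (SE 0.17), Runx1 at -0.29 (SE 0.12) and Fli1 at -0.46 (SE 0.12). Without the second or the third Veh library 0 of the 37 passed, and without the first 1 did.

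**Figure D3:**
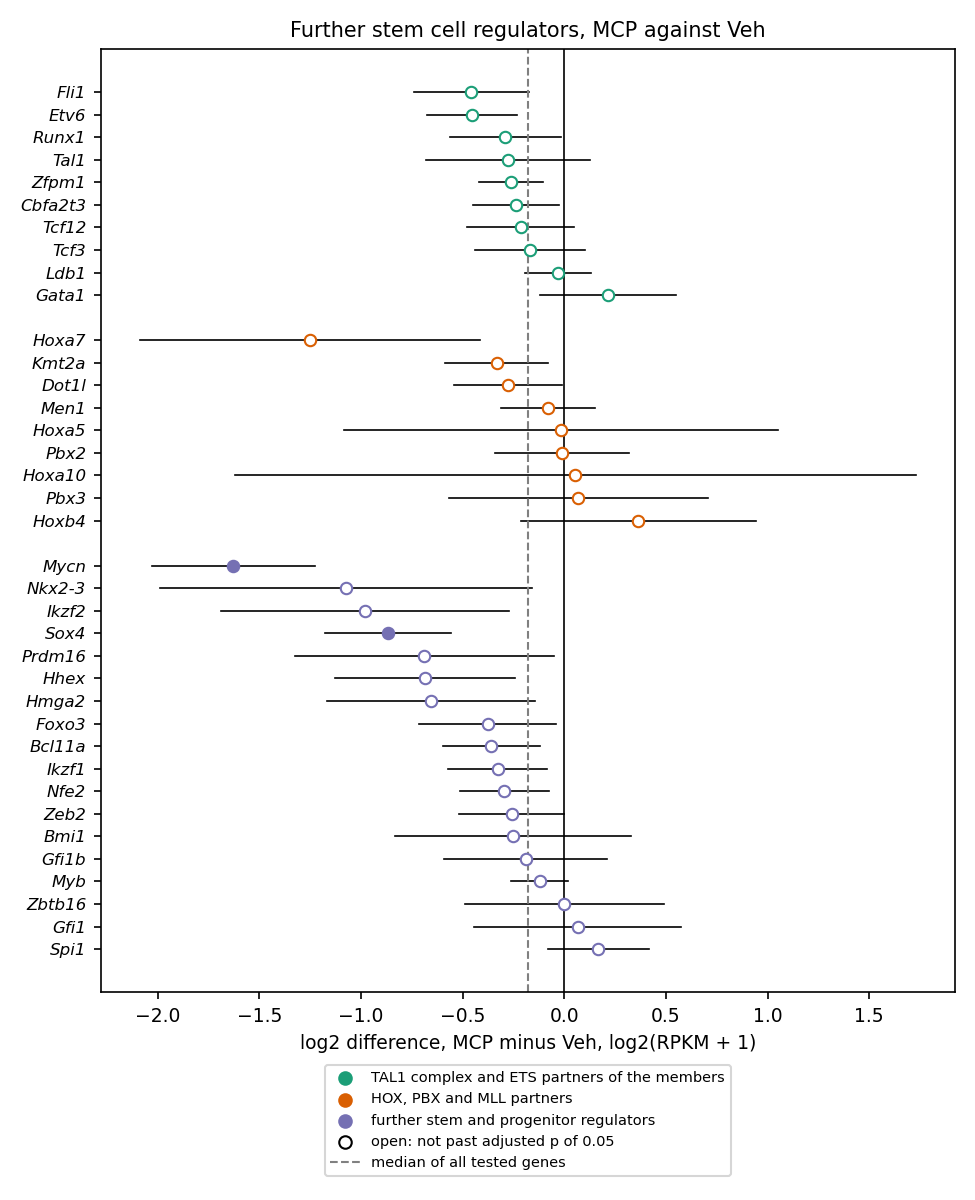
Log2 difference of log2(RPKM + 1), MCP LSC minus Veh LSC, with 95% intervals from limma for the 37 further regulators, grouped by role. Mycn and Sox4 passed the adjusted threshold of 0.05; the dashed line is the median of all tested genes.

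In naive LSK cells, CD93 deficiency came with no change that passed the test in any of the 9 genes. Meis1 had the most negative estimate, with 53.8 and 37.0 RPKM in KO LSK, against 75.4 and 163 RPKM in WT LSK. Both knockout libraries lay below both wild-type libraries, but the wild-type libraries differed from each other by more than the gap between the groups. The log2 difference was -1.30 (SE 0.44, limma adjusted p = 0.820). Gata2 was at 53.7 and 34.9 RPKM in KO LSK, against 69.7 and 115 RPKM in WT LSK (difference -1.03, SE 0.39, limma adjusted p = 0.834). Hoxa9 was at 105 and 99.5 RPKM in KO LSK, against 165 and 132 RPKM in WT LSK (difference -0.53, SE 0.29), and Erg at 20.7 and 16.5 RPKM in KO LSK, against 21.4 and 22.5 RPKM in WT LSK (difference -0.23, SE 0.42).

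The remaining 5 genes had overlapping groups. Hlf was at 45.0 and 26.0 RPKM in KO LSK, against 27.3 and 75.7 RPKM in WT LSK (difference -0.40, SE 0.55). Mecom was at 13.3 and 16.5 RPKM in KO LSK, against 11.6 and 18.4 RPKM in WT LSK (difference 0.02, SE 0.50). For both genes the 2 WT libraries were farther apart than the 2 KO libraries. Mllt3 was at 43.1 and 37.7 RPKM in KO LSK, against 50.3 and 31.2 RPKM in WT LSK (difference 0.02, SE 0.38). Lyl1 was at 28.6 and 34.8 RPKM in KO LSK, against 32.5 and 25.6 RPKM in WT LSK (difference 0.12, SE 0.38), and Lmo2 had a difference of 0.35 (SE 0.37). The 95% intervals were wide, for Hlf -1.69 to 0.88 and for Lmo2 -0.52 to 1.23. In all, 4 of 9 genes had ranges apart with KO lower, beside 20.5% of tested features lower and 14.0% higher. limma called 0 of 13485 features at the adjusted threshold and 769, 5.70%, at an unadjusted p under 0.05, Meis1 and Gata2 among them. The median log2 difference was -0.23 over the 9 genes and -0.11 over all tested features; of the 37 other regulators 0 were called, with a median of -0.07.

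In WT LSCs Hlf, Mecom, Erg and Lyl1 were at 1.31 RPKM or less in every library, and Mllt3 was at the lowest value in 2 of 3. limma called these 5 of the 9 genes lower than in WT LSK cells (adjusted p under 0.05). This stood beside 37.0% of all tested features called lower and 1.88% called higher, so the 5 are to be read against libraries in which fewer features were above the lowest value. All 9 genes passed the filter on low values, but Hlf, Mecom, Mllt3 and Erg would not have passed it on the LSC libraries alone, and Lyl1 would have passed only through the second KO LSC library. These 5 were tested because of their level in LSK cells, so they could hardly come out otherwise than lower, and their calls are a description, not support for a loss of these genes as a group. Every WT LSC library was below both WT LSK libraries for all 9 genes, beside 56.3% of all tested features. Hlf and Mecom were at 0.003 RPKM in all 3 WT LSC libraries, as were 30.9% of tested features, against 27.3 and 75.7 RPKM (Hlf) and 11.6 and 18.4 RPKM (Mecom) in WT LSK. Erg was at 0.003, 0.250 and 0.003 RPKM in WT LSC, against 21.4 and 22.5 RPKM in WT LSK (limma adjusted p = 0.000668). Lyl1 was at 0.387, 1.31 and 0.003 RPKM in WT LSC, against 32.5 and 25.6 RPKM in WT LSK (limma adjusted p = 0.00330). Mllt3 was at 5.68, 0.003 and 0.003 RPKM in WT LSC, against 50.3 and 31.2 RPKM in WT LSK (limma adjusted p = 0.0347), and this call was lost with a pseudocount of 0.1 (0.0927), with no filter (0.0856) and with library weights (0.373).

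Meis1 was the only member above the lowest value in every WT LSC library. It was at 14.5, 34.9 and 27.1 RPKM in WT LSC, against 75.4 and 163 RPKM in WT LSK, a log2 difference of -2.16 (SE 0.70) that did not pass (limma adjusted p = 0.0758). Hoxa9 was at 64.3, 0.003 and 102 RPKM in WT LSC, against 165 and 132 RPKM in WT LSK. A single WT LSC library thus set its estimate: the difference was -2.97 (SE 2.35, limma adjusted p = 0.377) with it and -0.86 (limma adjusted p = 0.289) without it. Gata2 was at 9.20, 6.84 and 0.003 RPKM in WT LSC, against 69.7 and 115 RPKM in WT LSK (limma adjusted p = 0.0550). Lmo2 was at 37.1, 10.1 and 0.003 RPKM in WT LSC, against 397 and 599 RPKM in WT LSK (limma adjusted p = 0.0578). Both had the third WT LSC library at the lowest value, and without it both passed (limma adjusted p = 0.0218 for Gata2 and 0.0282 for Lmo2); Lmo2 also passed without the first WT LSC library (limma adjusted p = 0.0359). Under quantile normalization, which moved the median of all tested features to -0.50, against -1.94 on the deposited scale, Mllt3, Erg and Lyl1 no longer passed (limma adjusted p = 0.185, 0.207 and 0.330) and Lmo2 did (limma adjusted p = 0.0299). In a fit with all 10 libraries of the CD93 experiment, Meis1, Gata2 and Lmo2 passed (limma adjusted p = 0.0266, 0.00632 and 0.00822) and Lyl1 did not (limma adjusted p = 0.154).

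Among the 37 other regulators, 12 were lower and 1 was higher in WT LSC than in WT LSK, beside the 37.0% of all tested features lower and 1.88% higher, so the list is not set apart from that background. Of the 12, 10 would not have passed the filter on the LSC libraries alone and could hardly come out otherwise than lower. Men1 (the MLL cofactor menin), Gfi1b, Bmi1 (a Polycomb protein) and Mycn had the smallest p-values and are among these 10: all 4 were at 0.003 RPKM in every LSC library of either genotype. Zfpm1, the GATA cofactor FOG1, was the 1 that rose: it was at 34.1, 19.9 and 58.0 RPKM in WT LSC, against 3.63 and 1.58 RPKM in WT LSK (difference 3.35, SE 0.69, limma adjusted p = 0.0218). Neutrophil genes summed higher and sort markers lower in these LSC libraries, as given above. Sums were also higher in WT LSC than in WT LSK for mast cell and basophil genes (576 to 1518 against 37.3 to 65.8 RPKM). That list did not move together: Mcpt8 (log2 difference 5.70) and Prss34 (5.81) were called higher and 0 of the 6 lower. Cpa3 (-0.84), Ms4a2 (-1.07) and Gzmb (-1.85) had negative differences that did not pass, and the list's median was -0.42. In each WT LSC library 3 to 4 of the 6 genes were at the lowest value. Macrophage and monocyte genes also summed higher (3829 to 11754 against 1016 to 1754 RPKM), with 2 of 7 called higher and 0 lower. Erythroid genes summed higher as well (2011 to 3522 against 339 to 674 RPKM), but 1 of the 6 tested was called higher and 2 lower. T and NK cell sums were higher too, but 5 of the 6 genes were at the lowest value in each WT LSC library. Of these 6 genes limma called 0 higher and 3 lower. Megakaryocyte sums overlapped, and B cell and endothelial sums were lower. What part these differences had in the lower stem cell factors was not tested. Of all tested features 254 among 5244 called were higher, against 717 among 4540 after quantile normalization.

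In the libraries labelled KO LSC, 8 of the 9 genes were at 0.003 RPKM in all 3 libraries, as were 70.6% of tested features. The exception was Lyl1, at 0.003, 255 and 0.003 RPKM, and its 1 value came from the second library, which also held the high Cd93 value. In that library Cd79b (B cells) was at 1594 RPKM, Nkg7 (NK and cytotoxic T cells) at 2457 RPKM and Pf4 (megakaryocytes) at 1417 RPKM. Each was at 0.003 RPKM in the other KO LSC libraries. In the second library 5 of the 6 B cell genes, 5 of the 6 T and NK cell genes and 4 of the 6 megakaryocyte genes were at the lowest value too. In WT LSC the T and NK cell genes summed to 695 to 2473 RPKM and the megakaryocyte genes to 158 to 1055 RPKM. The B cell genes there summed to 0.018 to 6.44 RPKM, and Lyl1 was at 0.003 to 1.31 RPKM. The part of such cells in the Lyl1 value was not tested. Against KO LSK, limma called the same 8 genes lower, beside 66.4% of all tested features called lower and 0.341% called higher; ranges stood apart, with KO LSC lower, for 8 genes and for 75.2% of features. With every KO LSC library at the lowest value these genes could only come out lower and had no spread in that group, so the calls are a description and no fold is given. With library weights Lmo2 no longer passed (limma adjusted p = 0.201). Without the second KO LSC library Lyl1 was at 0.003 RPKM in the remaining KO LSC libraries and was called lower in the same way. Of the 37 other regulators 32 were lower, with Nkx2-3, Pbx2, Runx1 and Hoxa7 at the smallest p-values, and 32 were lower without that library too; 18 of the 32 would not have passed the filter on the LSC libraries alone.

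**Figure D4:**
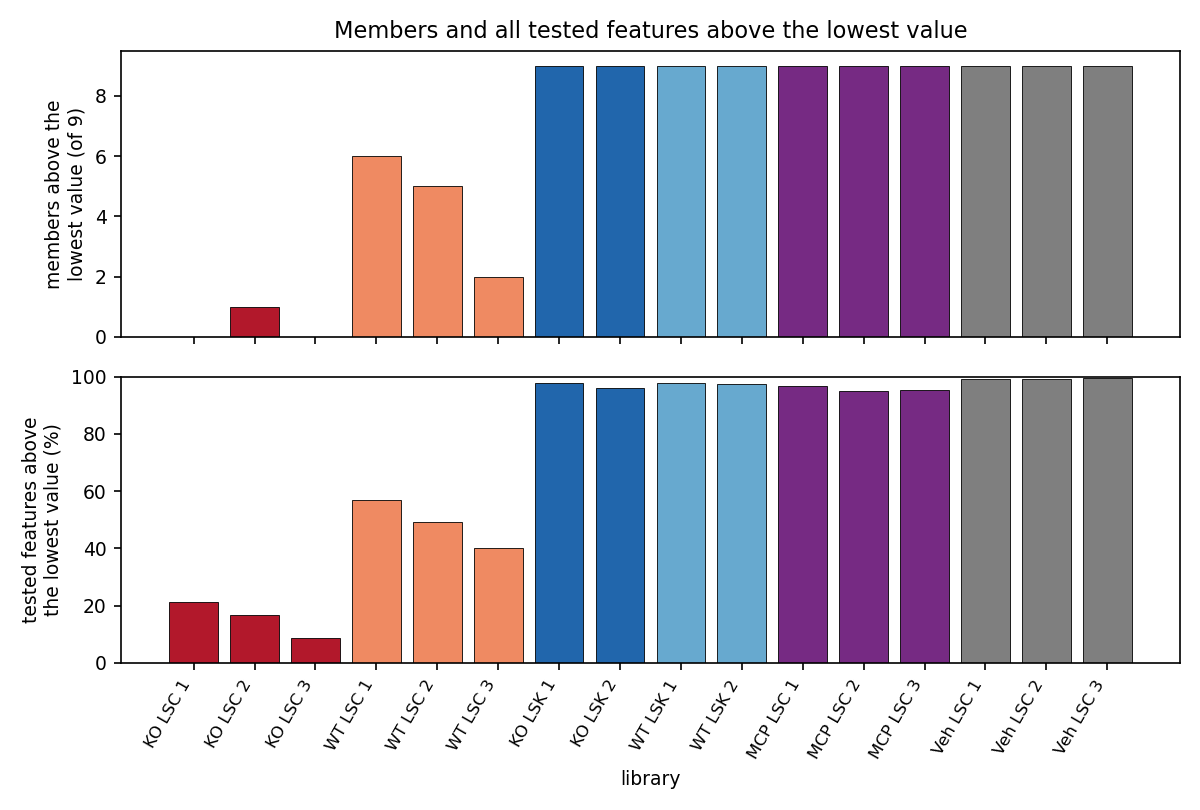
Number of the 9 genes above the lowest value in each library, with the percentage of all tested features above it. The libraries labelled KO LSC held 0, 1 and 0 of the genes and WT LSC 6, 5 and 2, against 9 in each of the other libraries.

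Between KO LSC and WT LSC, limma called 0 of the 9 genes in either direction, beside 2.65% of tested features, all lower (1385, or 10.3%, at an unadjusted p under 0.05); without the second KO LSC library 0 of the 9 and 174 genes in all were called, 1 of the 174 higher. Meis1 was the only member whose groups stood apart, as did 14.1% of tested features with KO LSC lower: it was at 0.003 RPKM in all 3 libraries labelled KO LSC, against 14.5, 34.9 and 27.1 RPKM in WT LSC (limma adjusted p = 0.0563). This value was on either side of the threshold with the settings: it passed with a pseudocount of 0.1 (limma adjusted p = 0.0183), with no filter (0.0114), with the filter applied to these 6 libraries (0.0205) and with all 10 libraries in the fit (0.00161), and it was 0.139 without the second KO LSC library. Hoxa9, at 64.3, 0.003 and 102 RPKM in WT LSC, was at 0.003 RPKM in KO LSC and did not pass (limma adjusted p = 0.600), and Lmo2, Gata2, Mllt3 and Erg, each at the lowest value in at least 1 WT LSC library, had adjusted p-values of 0.609. Lyl1 had a log2 difference of 2.11 (SE 2.49, limma adjusted p = 0.743), which turned negative without the second KO LSC library. Hlf and Mecom were at 0.003 RPKM in all 6 libraries, so no difference was detectable. Apart from Lyl1, the other members were also at 0.003 RPKM throughout KO LSC, so their estimates could not be positive.

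Of the 37 other regulators, 3 were lower in the libraries labelled KO LSC than in WT LSC, beside 2.65% of tested features, and ranges stood apart, with KO LSC lower, in 9 of the 37, beside 14.1%. Zeb2, a zinc finger repressor, was at 0.456, 0.003 and 0.003 RPKM in KO LSC, against 69.9, 49.2 and 114 RPKM in WT LSC (limma adjusted p = 0.0234). Nfe2, a bZIP factor of megakaryocytes and erythroid cells, was at 0.003 RPKM throughout KO LSC, against 39.0, 82.1 and 120 RPKM in WT LSC (limma adjusted p = 0.0241). Zfpm1 was likewise at 0.003 RPKM in KO LSC, against 34.1, 19.9 and 58.0 RPKM in WT LSC (limma adjusted p = 0.0420). With every KO LSC library at the lowest value, as in 70.6% of tested features, Nfe2 and Zfpm1 could only come out lower. They had no spread in that group, and Zeb2 was at the lowest value in 2 of 3 KO LSC libraries, so the 3 calls are a description. Without the second KO LSC library 0 of the 37 passed. The groups also differed in the number of features above the lowest value, given above, and the part of that in these calls was not tested.

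The interaction of genotype and leukemia asks whether the difference between KO and WT was another in LSCs than in LSK cells, and it passed for 0 of the 9 genes, beside 6.08% of tested features (820, and 709 without the second KO LSC library). Hlf and Mecom were at 0.003 RPKM in all 6 LSC libraries, so for them it only mirrors the difference between the LSK groups and tests nothing in LSCs. Meis1 came nearest (limma adjusted p = 0.0861), and the others lay between 0.534 and 0.985. It passed without the first WT LSC library (limma adjusted p = 0.0377), with a pseudocount of 0.1 (0.0100) and with no filter (0.0440). Hoxa9 passed without the second WT LSC library (limma adjusted p = 0.00825) and Lmo2 without the third (limma adjusted p = 0.0381). Meis1, Hoxa9 and Lmo2 were at 0.003 RPKM in every KO LSC library and had no spread there, so these passes are a description. For Lyl1 the estimate of 1.98 (SE 3.11) turned negative without the second KO LSC library, where 0 of the 9 genes passed. Among the 37 other regulators Zfpm1, Zeb2 and Nfe2 passed, with a lower difference between KO and WT in LSCs (limma adjusted p = 0.00802, 0.0107 and 0.0207), and 5 of the 37 passed without the second KO LSC library. In KO LSC Zfpm1 and Nfe2 were at 0.003 RPKM in every library and Zeb2 in 2 of 3, so these 3 calls too are a description. These comparisons share libraries with those above and are no independent evidence.

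The gene whose pattern over the 6 groups was most like each member was found among 10118 candidate features, by the smallest mean absolute difference of log2(RPKM + 1) group means after centring within each experiment. The nearest were Arhgap15 for Meis1 (0.217), Ighm for Hoxa9 (0.169), Irf5 for Hlf (0.0758), Grap for Mecom (0.0661), Klc1 for Mllt3 (0.0466), Gcnt2 for Gata2 (0.0401), Gemin8 for Erg (0.0337), Zfp707 for Lyl1 (0.0843) and Spint2 for Lmo2 (0.0783). Without the second KO LSC library 6 of the 9 kept their nearest gene, while Meis1, Hoxa9 and Lyl1 had another. The median distance of a candidate from a member ran from 0.815 to 1.66. Likeness of group means did not extend to single libraries in every case: Arhgap15 was at 125, 0.505 and 58.0 RPKM in WT LSC and Zfp707 at 74.4, 0.003 and 0.003 RPKM in KO LSC, where Lyl1 was high in the second library. Spint2 was at 0.003, 0.003 and 289 RPKM in WT LSC, where Lmo2 was at 37.1, 10.1 and 0.003 RPKM. Ighm was at 321, 6.93 and 0.248 RPKM in KO LSC, where Hoxa9 was at 0.003 RPKM in every library.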

How the data were processed

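RNA-seq of sorted mouse bone marrow cells was analysed from 16 deposited tables, 10 from the CD93 experiment and 6 from the drug experiment. The deposited values were read as RPKM, normalized by the authors before deposit, from their range and their totals of 828673 to 1360552 per library. The genome build was GRCm38 (mm10), per the submitters' processing notes. Which aligner, counter or annotation was used is not given in the sources used here. Low values of single-exon genes fell within 0.1 of whole multiples of an estimated 1-read value in 18.7% to 59.3% of cases per library, where even spacing gives 20%, so no reads were recovered and the depth is unknown.

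Groups followed the sample titles. Values were tested as log2(RPKM + 1) with limma 3.58.1 in R 4.3.3 (trended variance prior, two-sided, Benjamini-Hochberg adjustment), in fits of the compared groups, or of all 10 CD93 libraries for the interaction. The features tested reached 1 RPKM in 2 or more libraries of an experiment: 13485 (CD93) and 14005 (drug). The fits were tested on simulated data drawn with spread in every group. That test does not cover groups with every library at the lowest value. Differences are on the log2(RPKM + 1) scale, which understates changes of low genes. The 9 genes, the 37 other regulators and the marker lists were chosen with earlier results of these data known. A further regulator is not reported here and is left out of the list's counts. Named were all 9 genes, up to 4 called regulators with the smallest p per comparison (and Tal1, Runx1 and Fli1, as the rest of the heptad, after their values were seen) and the 1 gene nearest in pattern to each of the 9. In the CD93 tables Kmt2a, Spi1 and Hbb-bs were matched by synonym, and Hbb-bt was not used. The 10 genes that every cell uses were listed after the data were seen. Alternatives were another pseudocount, no filter, quantile normalization, all 10 libraries in 1 fit, replicate number as a block, library weights, leaving out each library and, added after seeing the data, a filter within each comparison, crossed pairing and nearest genes without the second KO LSC library. Same-numbered libraries did not deviate together.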

Additional observations from a re-analysis of the deposited data

How the results depend on the processing

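Depth is unknown, and LSC libraries of the CD93 experiment hold few features above the lowest value, so a difference between genes at 0.003 RPKM was not detectable there. Adjusted p-values from 2 or 3 libraries a group rest on the pooled variance of limma, and a fit that leaves 1 library in a group assumes that it varies like the others.

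For KO LSC against WT LSC, the 358 genes called became 704 with a pseudocount of 0.1, 1188 with all 10 libraries in 1 fit, 868 with the filter applied to the 6 libraries, 2 with library weights and 0 with quantile normalization; the members called went to 1 (Meis1) with a pseudocount of 0.1, with no filter, with all 10 libraries and with the within-comparison filter, and the 3 other regulators to 0 with quantile normalization and library weights. For MCP, no filter on low values left 1 other regulator called, against 2. For KO LSK against WT LSK, all 10 libraries gave 247 genes called. For WT LSC against WT LSK, quantile normalization gave 3 members called (Hlf, Mecom and Lmo2). For the interaction, a pseudocount of 0.1 or no filter gave 1 member (Meis1) and quantile normalization 1 other regulator. Single estimates of the interaction that changed sign were Erg (-0.35 with a pseudocount of 0.1 and -0.50 with quantile normalization, against 0.13) and Mecom (0.22 with library weights, against -0.02). The cause of these changes was not tested.

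The replicate numbers did not pair the libraries: correlations of deviations between same-numbered libraries were -0.0084 to 0.0140 for MCP and Veh LSC, -0.0232 to 0.00348 for KO and WT LSC and -0.282 for KO and WT LSK. With the replicate block, genes called were 39 for MCP, 0 for KO LSC against WT LSC and 0 for the interaction; members called were 0 for MCP (limma adjusted p = 0.0546 for Meis1, 0.0686 for Hlf and 0.0713 for Gata2); other regulators called were 1 for MCP, 0 for KO LSC against WT LSC, 7 for WT LSC against WT LSK and 0 for the interaction. Among the members in WT LSC against WT LSK, the block lost Mllt3 (limma adjusted p = 0.0591) and gained Lmo2 (0.0499). With the numbers of KO LSK and WT LSK crossed, 62 genes and 1 other regulator were called.

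Leaving out each library in turn gave 25 to 406 genes, 0 to 5 members and 0 to 4 other regulators called for MCP; 0 to 772 genes, 0 members and 0 to 4 other regulators for KO LSC against WT LSC; 0 genes for KO LSK against WT LSK; 4696 to 5733 genes, 4 to 6 members and 10 to 17 other regulators for WT LSC against WT LSK; 8556 to 9967 genes, 8 to 9 members and 29 to 33 other regulators for KO LSC against KO LSK; and 491 to 1558 genes, 0 to 1 member and 3 to 7 other regulators for the interaction. Mllt3 in WT LSC against WT LSK lost its call in 4 of these 5 fits. Estimates that crossed 0 were, for KO LSC against WT LSC, Lyl1 (-0.56 to 3.44); for KO LSK against WT LSK, Mecom (-0.29 to 0.33), Hlf (-1.12 to 0.31), Mllt3 (-0.31 to 0.36) and Lyl1 (-0.041 to 0.29); and for the interaction, Mecom (-0.33 to 0.29), Hlf (-0.31 to 1.12), Erg (-0.028 to 0.28) and Lyl1 (-0.68 to 3.32). None of these had passed the test, and estimates for genes at the lowest value in a group depend on the pseudocount and are no folds.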
